A study of Mus musculus with 12 samples.

Results

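The nuclear lamina is a mesh of intermediate filament proteins, the lamins, that lines the inner face of the nuclear envelope. A-type lamins (lamin A and lamin C) come from Lmna, and B-type lamins come from Lmnb1 and Lmnb2. Proteins of the inner nuclear membrane tie the mesh to chromatin and to the cytoskeleton: LBR (lamin B receptor) holds heterochromatin at the periphery, emerin and the LAP2 proteins carry a LEM domain that binds the DNA-bridging protein BAF, and SUN1 and SUN2 cross the envelope to reach KASH proteins of the outer membrane. Lymphocytes are small cells with little cytoplasm and comparatively little A-type lamin, and their nuclei must deform as they migrate.

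The 9 genes described here are Lmna, Lmnb1, Lmnb2, Lbr, Emd (emerin), Tmpo (the LAP2 proteins), Banf1 (BAF), Sun1 and Sun2, taken by symbol from 55536 annotated genes. All 9 were among the 18817 genes with enough counts to be tested. They were chosen by gene family with their measured expression in these libraries known (the count and FPKM differences between the groups), so their fold changes are given as a description, with no p-value. The p-values printed for shares of their transcripts are a description too and give no independent support.

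RNA was sequenced from CD8+ T cells of OT-I mice, whose transgenic T cell receptor recognizes the ovalbumin peptide SIINFEKL. Transferred OT-I cells in C57BL/6J mice met SIINFEKL with rat IgG (Ag, 5 libraries) or SIINFEKL with agonist antibodies to CD134 and CD137 (Ag+Costim, 5 libraries), and they were collected at day 4 by the labels. Cells of untreated OT-I mice made the Naive group (2 libraries). The methods describe the OT-I mice as Rag-deficient on a C57BL/6J background, so they lack B cells of their own, and the recipients as wild type. The study's methods describe sorting from spleen and lymph nodes of the recipients, so the transferred cells came from a host that kept its own lymphocytes, whereas Naive cells had been neither transferred nor immunized. The labels do not say which libraries are separate animals. The paper counts the samples of each group as biological replicates, without naming an animal for each of these libraries. The p-values measure the spread between these libraries. Transfer into a host and exposure to antigen cannot be told apart in a comparison with Naive.

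Library totals were 42342577 and 43491402 counts in Naive, 24006053 to 45980125 in Ag (lowest in Ag 4) and 40028682 to 49294934 in Ag+Costim. Levels are given as CPM, the counts of a gene relative to its library's scaled total, or as FPKM, which also divides by transcript length and is used to compare one gene with another, beside counts per kilobase of exon. The CPM of cell type markers alone are relative to the unscaled total. The 7 T cell markers had counts in every group and summed to 10800 to 11550 CPM in Naive, 8035 to 10760 in Ag and 4146 to 5731 in Ag+Costim, and Cd4 stayed at or below 2.39 CPM. Of the B cell markers, Ighm was at 1138 and 1162 CPM in Naive, 1033 to 1629 in Ag and 501 to 1095 in Ag+Costim, and Ms4a1 at no more than 0.161, 10.1 to 21.3 and 3.11 to 11.7 CPM. The 6 erythroid markers reached 6726 CPM in Ag 4 and at most 211 in Ag+Costim. Their part in the values below was not tested. In bulk RNA, fewer cells of a type and less RNA per cell cannot be told apart.

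The 9 genes did not move as a block. With costimulation 6 of the 9 were called higher (Lmnb1, Lmnb2, Lbr, Tmpo, Sun1, Sun2), 1 was called lower (Lmna), and Emd and Banf1 were not called, by edgeR's quasi-likelihood test at an adjusted p below 0.05. Across all genes 53.1% were called in this comparison, 26.6% higher and 26.5% lower, and since the genes were picked with these values in view nothing is read from their count. The libraries of the 2 groups did not overlap for 5 of the 9 (Lmnb1, Lmnb2, Lbr, Tmpo, Sun1), as for 39.8% of all genes. Without Ag 4 or without Ag+Costim 4 the same 7 genes were called in the same directions. The median log2 fold change was 1.27 over the 9 genes and -0.05 over all genes.

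**Figure D1:**
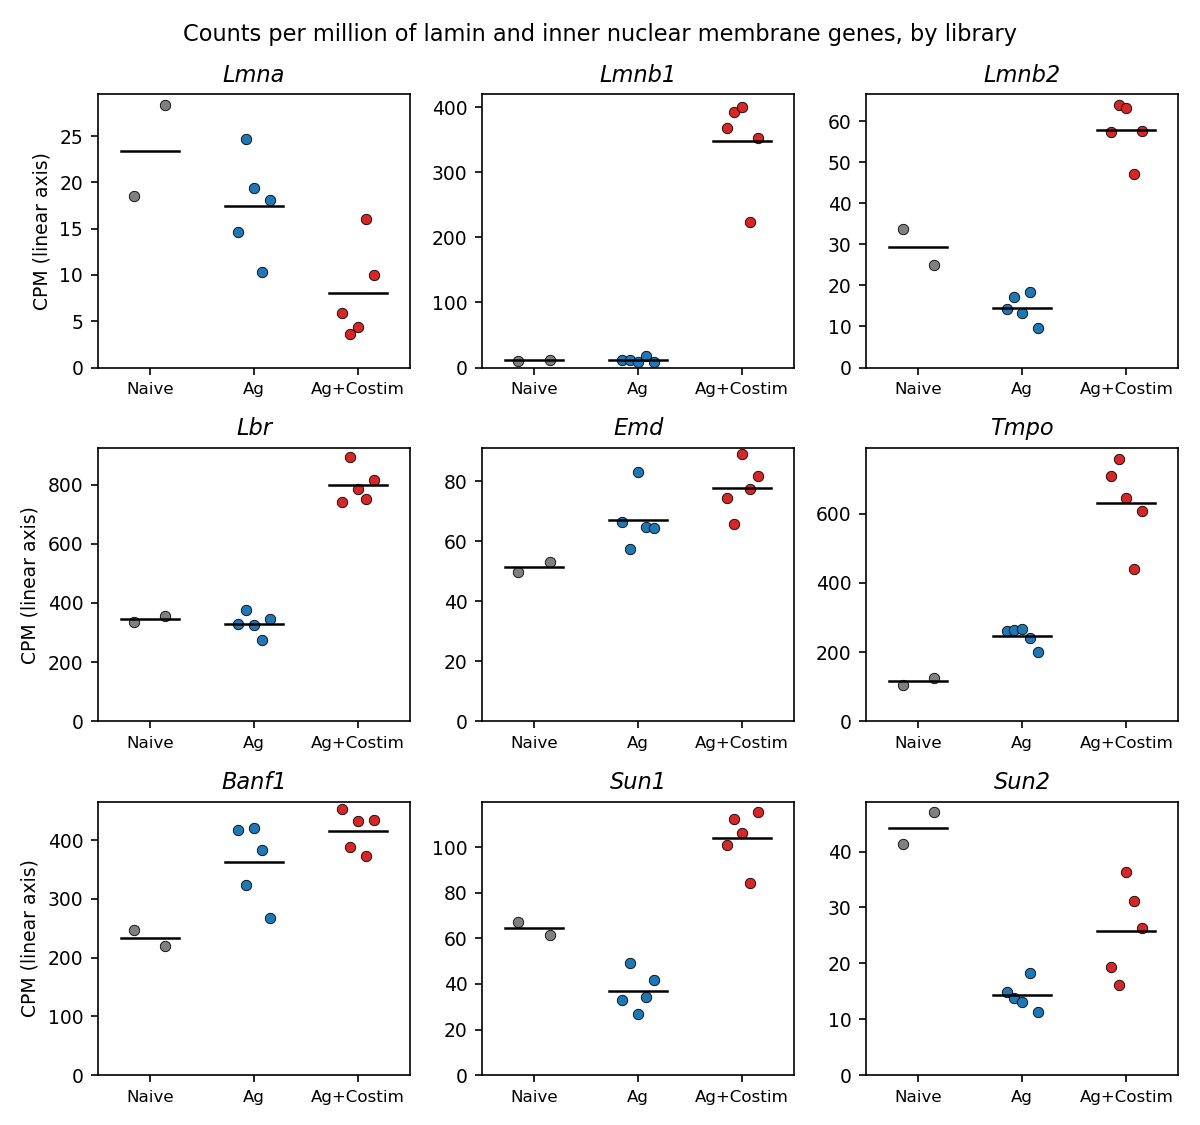
CPM (linear axes from 0, a scale of its own for each gene) of the 9 genes, by group, with 1 point per library (2 Naive, 5 Ag, 5 Ag+Costim) and a line at the group mean. Lmnb1 lies between 8.06 and 17.8 CPM in Naive and Ag and between 224 and 401 CPM in Ag+Costim, whereas Banf1 and Emd overlap between Ag and Ag+Costim.

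Lmnb1 (chr18:56707813-56753424, plus strand, GRCm38) encodes lamin B1, the B-type lamin that is lost from senescent cells. It was at 10.2 and 11.9 CPM in Naive cells. In Ag it was at 12.0005, 11.9952, 8.06, 17.8 and 8.35 CPM, and in Ag+Costim at 367, 392, 401, 224 and 353 CPM. The lowest Ag+Costim library was therefore far above the highest library of either other group, and Naive lay within the range of Ag. The means were 11.1 ± 1.19 (SD, n = 2), 11.6 ± 3.95 (n = 5) and 347 ± 71.6 CPM (n = 5). Ag+Costim exceeded Ag by 4.91 ± 0.24 on the log2 scale (estimate ± SE), a 29.9-fold difference, while Ag and Naive differed by 0.07 ± 0.28.

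Lmnb2 (chr10:80901203-80918245, minus strand) encodes lamin B2 and followed another course. It was at 33.6 and 24.9 CPM in Naive, at 14.1, 17.2, 13.3, 18.3 and 9.60 in Ag, and at 57.4, 63.9, 63.3, 47.2 and 57.6 in Ag+Costim. The 3 groups did not overlap, with Ag lowest and Ag+Costim highest. The log2 fold change was 2.001 ± 0.17 from Ag to Ag+Costim, -1.02 ± 0.21 from Naive to Ag and 0.98 ± 0.22 from Naive to Ag+Costim.

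Lmna (chr3:88480147-88509956, minus strand) went the other way. It was at 18.5 and 28.3 CPM in Naive, at 14.7, 24.7, 19.4, 10.4 and 18.1 in Ag, and at 5.88, 3.61, 4.42, 16.1 and 9.996 in Ag+Costim. Ag and Ag+Costim overlapped through Ag+Costim 4, which lay above Ag 1 and Ag 4. The log2 fold change with costimulation was -1.13 ± 0.37, and it lay between -1.53 and -0.94 as single libraries were left out. The adjusted p fell short of the threshold without Ag 2. Naive and Ag differed by -0.42 ± 0.47. Ag+Costim 4, the highest Lmna library of its group, also had the group's highest Ighm (1095) and Csf1r (33.5), in the unscaled CPM of markers, and its lowest Lmnb1. The part of those transcripts in the Lmna value was not tested.

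Per kilobase, the 3 lamin genes summed to 24.5 to 26.9 FPKM in Naive, 13.8 to 20.4 in Ag and 95.4 to 151 in Ag+Costim. Lmna made up 45.4% of that sum in Naive (38.7% to 52.1%), 49.9% in Ag (30.2% to 60.3%) and 2.84% in Ag+Costim (0.846% to 7.27%). Lmnb1 made up 16.9%, 25.0% and 85.1%, and Lmnb2 37.7%, 25.1% and 12.1%. On this scale the ratio of Lmna to Lmnb1 plus Lmnb2 was 0.860 in Naive, 1.08 in Ag and 0.0298 in Ag+Costim, and with counts divided by the length of all exons it was 0.387, 0.445 and 0.0123. The ratio of Lmna to Lmnb1 in FPKM was 2.68 in Naive, 2.27 in Ag (0.787 to 3.32) and 0.0345 in Ag+Costim (0.00966 to 0.0923). Per kilobase of all exons the same ratios were 1.06, 0.856 and 0.0139, so which of the A-type and B1 transcripts was the more abundant in Ag depends on the length used, and the Ag+Costim ratio stayed the lowest on both scales.

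**Figure D2:**
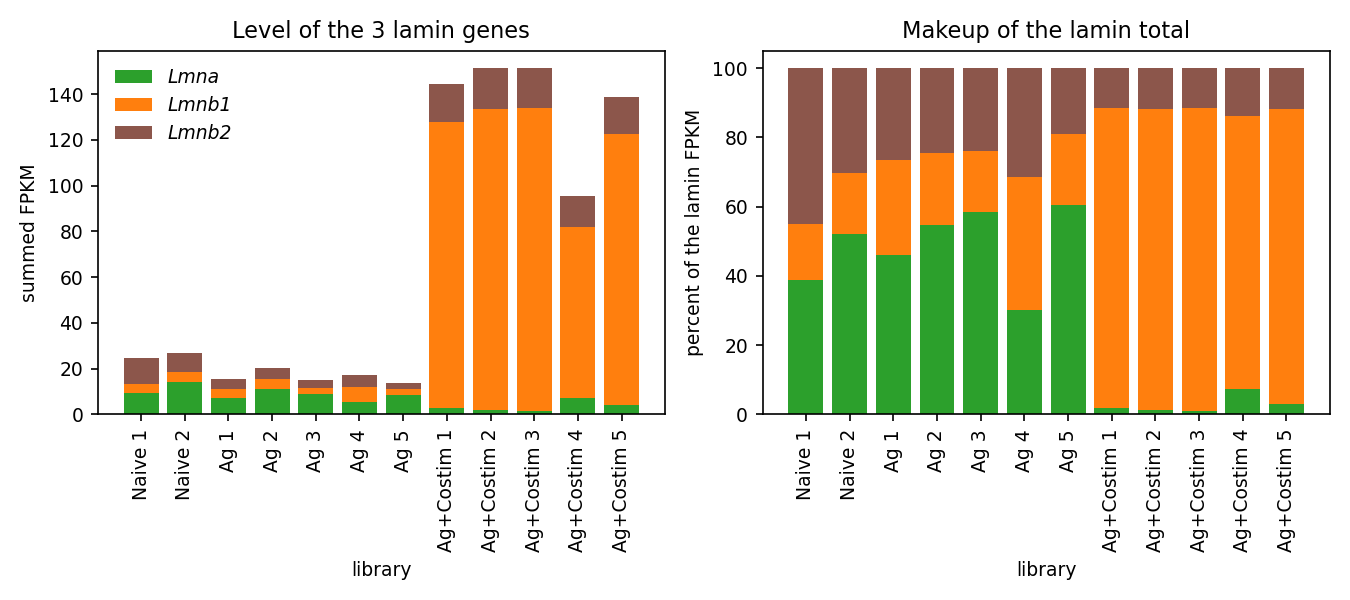
Stacked bars, 1 per library, of the FPKM of Lmna, Lmnb1 and Lmnb2 (left) and of each gene's percent of their sum (right), both from 0. Lmnb1 takes 78.8% to 87.6% in the 5 Ag+Costim libraries and 16.3% to 38.4% in the Naive and Ag libraries.

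Lamin A and lamin C share 568 codons and then part. Because Lmna was the 1 member called lower with costimulation, the last shared bases and the first bases of each own end are shown, with capitals after the point of divergence, from the GENCODE transcripts on the minus strand of GRCm38. The last shared base is at chr3 position 88483318. Lamin C reads on in the same exon at 88483317, whereas the lamin A precursor continues at 88482612.
Lmna-201, lamin A precursor, 665 residues: ctccatcaccaccgtGGTTCCCACTGCAGC
Lmna-203, lamin C, 574 residues: ctccatcaccaccgtGTGAGTGGCAGCCGC

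The lamin C transcript Lmna-203 held 74.4% and 84.4% of Lmna counts in Naive and 77.4% to 97.6% in Ag. In Ag+Costim it held 73.5% to 98.8% in 4 libraries and was listed at 0 in Ag+Costim 3, where Lmna-201 held 92.2%. Lmna had 163 to 691 counts per library in Ag+Costim, and StringTie divides single-end reads between transcripts that share most of their length. The shares of both transcripts overlapped between all groups.

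Lbr (chr1:181815335-181843046, minus strand) was at 337 and 358 CPM in Naive, at 328, 375, 324, 276 and 347 in Ag, and at 742, 893, 786, 752 and 815 in Ag+Costim. Naive lay within Ag, and every Ag+Costim library lay above both. The log2 fold change with costimulation was 1.27 ± 0.09, or 2.42-fold, and that from Naive to Ag was -0.07 ± 0.12. In FPKM the ratio of Lbr to Lmna, the A-type lamin that shares its role in peripheral heterochromatin, was 9.80 in Naive, 12.04 in Ag and 94.2 in Ag+Costim, where it ran from 29.9 to 167. By counts per kilobase it was 18.9, 24.5 and 167 in the same order.

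Tmpo (chr10:91147571-91181315, minus strand) was higher at each step. It was at 105 and 125 CPM in Naive, at 261, 263, 266, 241 and 199 in Ag, and at 708, 758, 644, 441 and 607 in Ag+Costim. No library of one group reached the next, and the log2 fold changes were 1.09 ± 0.19 from Naive to Ag and 1.36 ± 0.14 from Ag to Ag+Costim. Its 2 best known products share 187 codons. LAP2alpha (Tmpo-201, 693 residues) stays in the nuclear interior and binds A-type lamins, and LAP2beta (Tmpo-202, 452 residues) spans the inner membrane and binds B-type lamins. Groups were apart in 9.6% of all 40782 transcripts between Ag+Costim and Ag, in 25.4% between Ag and Naive and in 34.5% between Ag+Costim and Naive. The bases around the split of the 2 products, at chr10 position 91164043, are given because they tell the products apart, with capitals again after the point of divergence.
Tmpo-201, LAP2alpha: gcgacaatgatgaagGAAAGAAGAAAGAAC
Tmpo-202, LAP2beta: gcgacaatgatgaagACTCTAAAATAGAGC

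LAP2alpha held 9.08% and 12.8% of Tmpo counts in Naive, 4.96% to 6.26% in Ag and 7.65% to 11.7% in Ag+Costim, so Ag lay below both other groups. LAP2beta held 75.3% and 78.3%, then 54.0% to 71.0% and 57.8% to 67.2%, with no gap between Ag and Ag+Costim. The LAP2alpha difference between Ag+Costim and Ag had an exact permutation p of 0.00794, the smallest that 5 against 5 libraries can give. Its adjusted p over all transcripts tested was 0.0827, which misses the threshold and is the lowest that any transcript reached.

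Emd and Banf1 were the 2 genes not called between Ag+Costim and Ag. Emd (chrX:74254687-74261548, plus strand) was at 49.8 and 53.1 CPM in Naive, at 66.3, 57.4, 82.9, 64.6 and 64.5 in Ag, and at 74.5, 65.7, 89.1, 77.2 and 81.7 in Ag+Costim. Both activated groups were above Naive and overlapped each other, with log2 fold changes of 0.38 ± 0.14 from Naive to Ag and 0.21 ± 0.11 from Ag to Ag+Costim. Corrected for transcript length these became -0.02 and 0.41, so the order of Naive and Ag depends on that correction, and the difference between Ag+Costim and Ag was then called. It was also called with the replicate block (0.21) and without Ag 3 (0.30). The 259-residue transcript Emd-201 held 21.1% to 21.3% of the counts in Naive, 21.8% to 24.8% in Ag and 35.6% to 45.9% in Ag+Costim. That last gap had an exact permutation p of 0.00794 and an adjusted p of 0.0827. Most other Emd counts were assigned to Emd-202, which runs to chrX:74261548. Emd-202 spans the pseudogene Gm14686 (chrX:74261032-74261374) on the same strand, whose part in these shares was not tested.

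Banf1 (chr19:5364638-5367168, minus strand) was the most abundant of the 9 per kilobase in every group, at 224, 310.4 and 349 FPKM. In CPM it was at 247 and 219.8 in Naive, at 418, 324, 420.1, 384 and 268 in Ag, and at 454, 388, 433, 372 and 435 in Ag+Costim. The log2 fold change was 0.64 ± 0.16 from Naive to Ag and 0.20 ± 0.12 from Ag to Ag+Costim. The latter was above 0 under 19 of 20 alternatives, was 0.43 and called with the length correction, and was -0.0013 under upper-quartile scaling. The former was 0.18 and not called with the length correction. Eif1ad on the opposite strand overlaps Banf1, and whether counting used strand is not given in the sources used here. The same holds for Lbr with Dnah14, Tmpo with Gm26765, Sun1 with 4930520M14Rik and Sun2 with Gm16575. Gm14686, a processed pseudogene, overlaps Emd on its own strand, and Gm26004, an rRNA gene, overlaps Lbr.

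**Figure D3:**
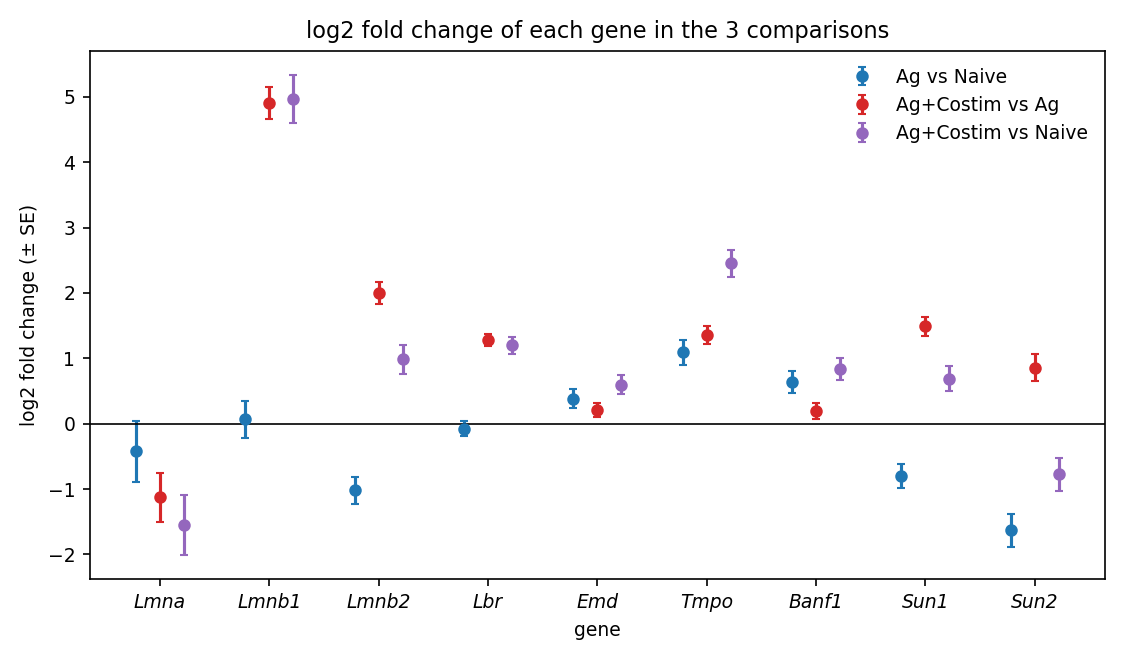
Log2 fold change (points) with its standard error (bars) of the 9 genes in the 3 comparisons, from a model of all 12 libraries. Lmnb1 stands at 4.91 for Ag+Costim against Ag and at 0.07 for Ag against Naive, and Lmna lies below 0 in all 3.

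Sun1 (chr5:139200637-139249840, plus strand) was at 67.4 and 61.3 CPM in Naive, at 32.9, 49.2, 26.8, 34.2 and 41.6 in Ag, and at 101, 112, 106, 84.3 and 115 in Ag+Costim. As for Lmnb2, the 3 groups were apart with Ag the lowest, and the log2 fold changes were -0.80 ± 0.18 and 1.49 ± 0.15. Sun2 (chr15:79724070-79742536, minus strand) was highest in Naive. It was at 41.4 and 47.1 CPM there, at 14.9, 13.8, 13.1, 18.4 and 11.4 in Ag, and at 19.4, 16.1, 36.3, 31.1 and 26.2 in Ag+Costim. Ag and Ag+Costim overlapped slightly. On the log2 scale the differences were -1.63 ± 0.25 from Naive to Ag and 0.85 ± 0.20 from Ag to Ag+Costim, and the latter was 0.52 and no longer called after correction for transcript length. The ratio of Sun2 to Sun1 in FPKM was 0.868 in Naive, 0.486 in Ag and 0.267 in Ag+Costim.

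The shares assigned to the Sun2 transcripts differed more than the level of the gene. GENCODE annotates some Sun2 transcripts as retained-intron RNAs, which keep an intron and have no annotated protein. They held 22.6% and 23.6% of Sun2 counts in Naive. In Ag they held 94.7%, 93.0%, 95.4%, 97.2% and 92.8%, and in Ag+Costim 9.78%, 9.50%, 21.0%, 5.31% and 6.83%. Nearly all Sun2 counts of Ag cells were thus assigned to retained-intron transcripts, and most of those of Naive and Ag+Costim cells were not. The mean difference between Ag+Costim and Ag was -84.1 percentage points, with an exact two-sided permutation p of 0.00794 and an adjusted p of 0.0468 over the 6286 genes with such transcripts. Groups were apart in 16.9% of these genes, and 3 genes, Sun2 among them, differed by at least as many points. Ag exceeded Naive by 71.5 points with an exact permutation p of 0.0476, the smallest that 5 against 2 can give, and an adjusted p of 0.155, where groups were apart in 36.4% of genes. Ag+Costim was different from Naive by -12.6 points (adjusted exact p = 0.0945), where 54.6% were apart and 51.9% apart and lower. The retained class was formed after the transcript values had been seen, so these p-values describe how the libraries lay and give no independent support. Between Ag+Costim and Ag an adjusted p below 0.05 was reached by 16.9% of genes, the same share as were apart.

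**Figure D4:**
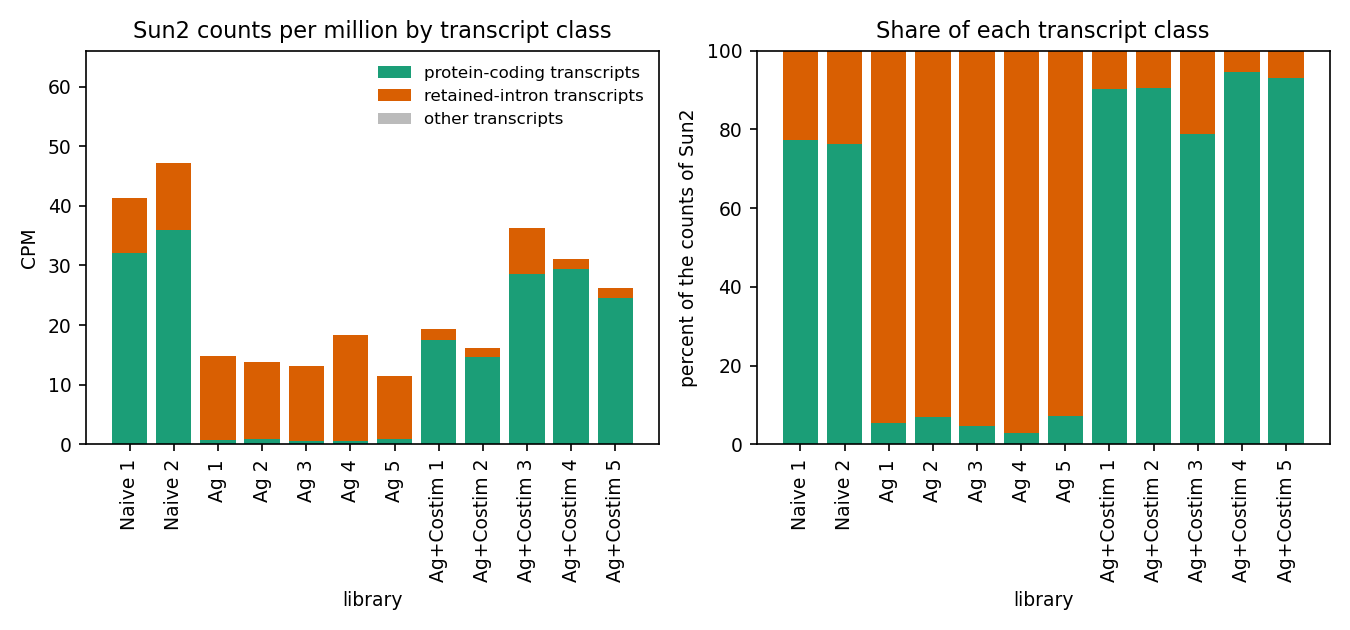
Stacked bars from 0, 1 per library, of Sun2 CPM (left) and percent of Sun2 counts (right) in protein-coding and retained-intron transcripts, with other transcripts as a further class. The part assigned to coding transcripts is 32.0 and 36.0 CPM in Naive, 0.514 to 0.962 in Ag and 14.6 to 29.4 in Ag+Costim.

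Protein-coding Sun2 transcripts were assigned 34.0 CPM in Naive (n = 2), 0.738 ± 0.178 CPM in Ag (n = 5) and 22.9 ± 6.64 in Ag+Costim (n = 5). Every Ag library was assigned less than any library of the other groups. These sums rest on 13 to 43 coding counts per Ag library against 657 to 1336 in Ag+Costim. All Sun2 transcripts together had 464 to 678 counts per Ag library. StringTie divides single-end reads between transcripts that share much of their length. The part of that division in the coding level was not tested. The single transcripts were less steady than the class. Sun2-210 took 0% to 97.0% and Sun2-208 0% to 67.7% of the Ag counts, and both keep the intron at chr15:79728085-79728415 (331 bases). Sun2-210 also keeps chr15:79728582-79729032 (451 bases), and Sun2-205, at 0% to 31.1%, ends inside an intron and covers its bases chr15:79729613-79730089 (477 bases). Of the coding transcripts, Sun2-201 (731 residues) held 3.27% in Ag and 44.9% in Ag+Costim, and Sun2-203 (729 residues) was listed at 0 in all Ag libraries and held 26.8% to 54.0% in Ag+Costim. Their exact permutation p was 0.00794 each and the adjusted p 0.0827.

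Of the 6 members with a value, 4 were called, where 16.9% of genes were, and nothing is read from this count since the members and the class were chosen with these libraries known. Sun1 held 14.5% in Naive, 9.51% in Ag (7.88% to 14.3%) and 5.13% in Ag+Costim (2.84% to 6.74%). The difference of -4.38 points between Ag+Costim and Ag had an adjusted exact permutation p of 0.0468. Tmpo was higher by 0.387 points and Lmnb1 lower by 0.397 points with the same adjusted exact p. The Lmnb1 value rests on 3, 2, 2, 2 and 1 retained-intron counts in Ag and 1, 16, 13, 7 and 1 in Ag+Costim. Lbr and Lmna were not called. Across the 6286 genes the median difference was -0.304 points, and 14.5% of genes were apart and lower, so a lower share in Ag+Costim was common.

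Whippet, which the authors used for splicing, gives for a node (a stretch of exon) the share of reads that include it, Psi, or for start and end nodes the share of each alternative, with 1 value for Ag and 1 for Ag+Costim and therefore no replicate check. Of 121 nodes in the 9 genes, 28 differed by more than 0.05, where 19.1% of all 115403 nodes with both values did. Among them were 10 of the 17 nodes listed for Sun2, 7 of 32 for Sun1 and 5 of 14 for Lmnb2. The rest were 2 nodes of Emd, 2 of Lmnb1, 1 of Lmna and 1 of Tmpo. For Lbr and Banf1 none of 12 and 2 nodes did. In Sun2 the alternative start nodes changed most. The node at chr15:79742339-79742504 was at 0.766 in Ag and 0.0632 in Ag+Costim, and its upstream neighbour at chr15:79742505-79742534 at 0.0539 and 0.481. Internal exons of Sun2 were included at a median of 0.917 in Ag and 0.970 in Ag+Costim, and all 10 were higher in Ag+Costim. The Sun2 nodes listed in the table used here do not include the introns named above.

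At the 3′ end of Lmnb2 the node chr10:80901364-80902797 (1434 bases), 1 of 3 alternative end nodes, was at 0.0493 in Ag and 0.625 in Ag+Costim, while the inner node chr10:80902798-80902900 was at 0.579 and 0.235 and the outermost, chr10:80901203-80901363, at 0.376 and 0.142. In Ag the single Lmnb2 transcripts were unsteady, with Lmnb2-201 (615 residues) between 11.9% and the whole of the counts, against 1.63% to 24.4% in Ag+Costim. Sun1 had end node shifts in the same comparison, from 0.162 to 0.305 and from 0.223 to 0.0896. In Lmna 1 of 10 internal exons was higher in Ag+Costim, with medians of 0.974 and 0.950, whereas all 9 of Lmnb1 were, with medians of 0.961 and 0.999. Read depth differed in the same directions. Lmnb1 had 346 to 547 counts per library in Ag and 9616 to 18687 in Ag+Costim, and Lmna 262 to 1103 and 163 to 691. The part of depth in the Psi values of the members was not tested.

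Together, the edgeR isoform test called 3 of the 50 tested transcripts of the 9 genes between Ag+Costim and Ag (Sun2-202, Sun2-203 and Sun2-210) where 2.41% of all 41844 transcripts were called. It called 3 between Ag and Naive (Tmpo-213, Sun2-202 and Sun2-203), where 1.57% were, and 0 between Ag+Costim and Naive, where 1.17% were (5 at an unadjusted p below 0.05, and 15 by the exact permutation test). In simulated data this test missed most changes and called unchanged transcripts, so no statement here rests on it. By the exact permutation test of shares 10 of 50 member transcripts were apart between Ag+Costim and Ag, as were 9.6% of all, and 0 passed adjustment, with 17 of the 50 and 21% of all at an unadjusted exact p below 0.05. The smallest p of this test (0.00794) became 0.0827 after adjustment, so no transcript could pass.

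Set against Naive, Ag had 3 members called higher (Emd, Tmpo, Banf1) and 3 lower (Lmnb2, Sun1, Sun2), where 24.2% and 22.5% of all genes were (46.7% in all), and 3 were not called. Libraries did not overlap for 6 of the 9 and for 56.4% of all genes. Ag+Costim had 7 called higher and 2 lower (Lmna, -1.55 ± 0.46, and Sun2, -0.78 ± 0.26), where 26.9% and 25.4% of all genes were (52.3% in all), and libraries did not overlap for any of the 9 and for 66% of all genes. The largest of these was Lmnb1 at 4.97 ± 0.37. The calls of Lmna, Lmnb2, Emd, Sun1 and Sun2 against Naive in Ag+Costim were lost when 1 of the Naive libraries was left out, that of Emd in Ag under 12 of its 20 alternatives, and that of Banf1 in Ag with the length correction and without Naive 2. The 3 comparisons share libraries and are not independent. In FPKM the order of levels in Naive was Banf1, Lbr, Emd and Tmpo (which overlapped), Sun1, Sun2, Lmna and Lmnb2 (which overlapped) and Lmnb1. In Ag it was Banf1, then Lbr and Tmpo (overlapping), Emd, and last Sun1, Lmna, Sun2, Lmnb2 and Lmnb1, each overlapping the next. In Ag+Costim it was Banf1, Lbr and Tmpo (overlapping), Lmnb1, Emd, Sun1, Lmnb2, and Sun2 and Lmna (overlapping). Lmnb1 was at 4.11 FPKM in Ag, where it overlapped Lmnb2, and at 117 FPKM in Ag+Costim.

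Over the 12 libraries Lmnb1 correlated with Lbr at r = 0.968 and with Lmnb2 at 0.908 (Pearson, log2 CPM), and Lmna with Lmnb1 at -0.805. Emd and Banf1 correlated at 0.821, and Sun2 with none of the others above 0.557. Among 9252 genes the 5 most like Lmnb1 were Hsp90b1 (an endoplasmic reticulum chaperone, 0.995), Ttf2, Wdr62, Ipo5 (a nuclear import receptor) and Mre11a (a DNA repair nuclease, 0.991). For Lmna they were Acaa1a (a peroxisomal thiolase, 0.948), Nprl2, Ttc38, Vsir and Tcp11l2 (0.938). The libraries of a group share their treatment, so these values mostly follow the differences between the groups.

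The members' promoters were searched for the letters of elements known from cell-cycle promoters. The RefSeq table (GRCm38.p6) covers 250 bases before to 50 after each start, and 13 of its promoters, from 8 members, were searched. Lmnb1 was not part of this search, and whether the table holds a promoter for it was not tested. TTTGAA, the CHR element, was found on either strand in 3 of these 13 promoters (Lbr, Tmpo and Sun2), and in 17.9% of all 32851 promoters. TTTCCCGC, an E2F site, was in 2 of the 13 (Tmpo and Banf1) and in 1.07% of all, and TTTGGCGC in none of these and in 0.514% of all. CCAAT was in 8 of the 13, from 7 members, and in 37.4% of all. A match is a string of letters and no evidence of binding. The CHR and E2F matches of Tmpo lie in its promoter at chr10:91170501-91170800. That promoter is inside the gene, downstream of the starts of Tmpo-201, Tmpo-202 and Tmpo-203 at 91171578, 91171582 and 91171568. The Tmpo promoter nearest those starts, chr10:91171570-91171869, held CCAAT and neither of these matches. The CHR and E2F matches, which fewer promoters hold than CCAAT, are shown in their windows on the gene's strand, with the matched letters in capitals.
Lbr, CHR in reverse, chr1:181842429-181842458: cgccggcgatgaTTCAAAaggtcgagggac
Tmpo, CHR, chr10:91170561-91170590: gatggagggcttTTTGAAccgttttgtttc
Tmpo, E2F, chr10:91170727-91170756: agttgtagcgtTTTCCCGCtttagcgccga
Banf1, E2F, chr19:5366939-5366968: ggtcctccggaTTTCCCGCcccctcttcgt
Sun2, CHR in reverse, chr15:79742614-79742643: ggagcctttgtgTTCAAAtcaaccaatggg

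Genes that work with the members were taken from lists set up with earlier results of these data known. All 10 proliferation genes rose between Ag and Ag+Costim (edgeR), where 26.6% of all genes were called higher. Their median log2 fold change was 1.89 against -0.05 over all genes. All 10 also rose from Naive to Ag, where 24.2% of all genes were called higher, with a median of 3.65. Bub1, a mitotic checkpoint kinase, rose by 3.16 (SE 0.25, edgeR adjusted p = 2.66e-07) with costimulation and Mcm2, a replication helicase subunit, by 2.38 (SE 0.14, edgeR adjusted p = 3.33e-08). Between Ag and Naive the 9 members ranged from -1.63 (Sun2) to 1.09 (Tmpo), with 3 called higher and 3 lower. The part of cycling in the members' values was not tested.

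Of 10 other inner nuclear membrane genes, 4 rose and 1 fell with costimulation. Across all genes 26.6% were called higher and 26.5% lower (53.1% in all). Nothing is read from the counts of this list or of the short lists after it. Tmem201 (SAMP1) rose by 2.44 (SE 0.17, edgeR adjusted p = 9.96e-08), Nrm (nurim) by 1.05 (adjusted p = 6.23e-06), and Lemd2, a LEM-domain protein of envelope resealing, fell by 2.09 (SE 0.25, adjusted p = 9.43e-06). Tmem201 had fallen by 1.70 from Naive to Ag (adjusted p = 1.61e-05) and Lemd2 had risen by 1.09 (adjusted p = 0.0164). The Lemd2 rise was 1.023 without Naive 1 and 1.145 without Naive 2, and its call was kept in neither. Among 5 tested KASH genes (of 6 listed), partners of the SUN proteins, 1 rose, Syne3 (nesprin-3) by 2.80 (adjusted p = 9.33e-08). Of 6 chromatin partners of LBR, LAP2, emerin and the lamins, 4 rose and 0 fell by edgeR. Cbx3 and Cbx5, heterochromatin proteins that LBR binds, rose by 1.55 (adjusted p = 8.29e-08) and 1.08 (adjusted p = 0.000312).

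Enzymes that mature prelamin A and the farnesylated B-type lamins gave 3 rises and 1 fall among 5. For this list and those after it the same shares of all genes apply, 26.6% called higher and 26.5% lower. Icmt, the methyltransferase of that pathway, rose by 1.21 (adjusted p = 0.00033) and Zmpste24, the protease that completes lamin A, by 0.46 (adjusted p = 0.00721), the latter not under upper-quartile scaling or length correction, while Fnta, a farnesyltransferase subunit, fell by 0.37 (adjusted p = 0.00424). Of 5 torsins, ATPases of the envelope lumen, 1 rose and 3 fell. Tor1b rose by 0.32 (adjusted p = 0.0043, lost under 4 alternatives), Tor3a fell by 0.59 (adjusted p = 0.00082) and Tor4a by 0.33 (adjusted p = 0.021, lost under 4 alternatives). Among 8 regulators of BAF and of envelope resealing 4 rose and 2 fell. Chmp4b, an ESCRT-III subunit, rose by 0.99 (adjusted p = 9.59e-05) and Ankle1, a LEM-domain nuclease, by 0.91 (adjusted p = 0.00548), whereas the BAF kinases Vrk2 and Vrk1 fell by 0.33 (adjusted p = 0.00194) and 0.27 (adjusted p = 0.0343). The call of Vrk1 was lost under 7 alternatives.

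**Figure D5:**
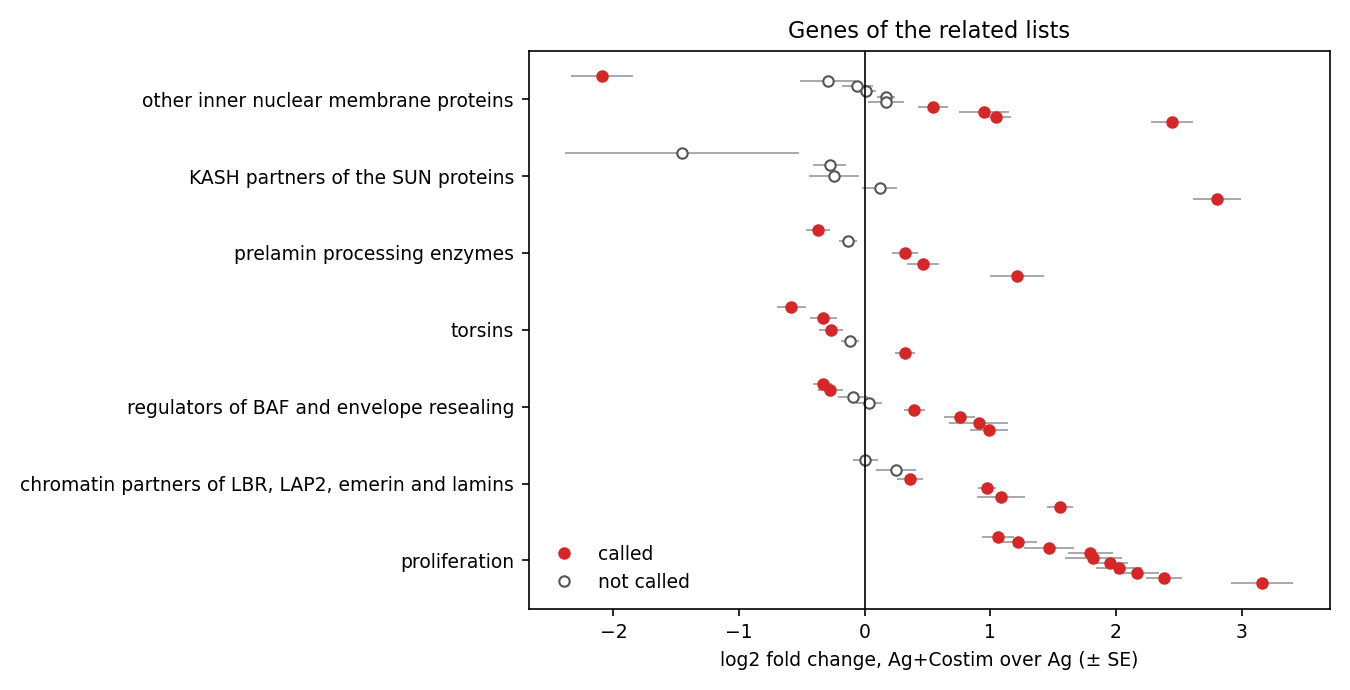
Difference (log2 fold, Ag+Costim over Ag) of each tested gene in the 7 lists of related genes, as points with bars of 1 SE, filled where edgeR called the gene and open where it did not. The 10 proliferation genes all lie above 0 with a median of 1.89, and the torsins have a median of -0.27.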

How the data were processed

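RNA-seq of 12 libraries (SMART-Seq v4, Nextera XT) was used. The authors aligned single-end reads to mm10 with HISAT2 2.1.0 and SAMtools 1.9 and quantified them with StringTie 2.1.0, and the deposited gene and transcript counts were made from coverage and are not normalized. The deposited FPKM values are per transcript and were summed per gene. Psi is a fraction that the authors computed with Whippet, 1 value per group, and how replicates were combined is not stated. The Psi differences and probabilities in that table were not used. The annotation was matched to GENCODE vM21, and 26345 unannotated entries (0.0508% to 0.121% of counts) were left out.

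Genes were fitted in edgeR 4.0.16 (R 4.3.3) over all 12 libraries, with TMM scaling, filterByExpr and the two-sided quasi-likelihood test with robust dispersions, and p-values were adjusted by Benjamini-Hochberg over 18817 genes. The call threshold was an adjusted p below 0.05. Log2 CPM used a prior count of 2. Transcripts were tested with diffSpliceDGE, and shares of transcripts and of retained-intron transcripts with exact two-sided permutation tests, adjusted over all transcripts or genes. Scripts were tested on simulated data. Alternatives were DESeq2 1.42.0, upper-quartile scaling, no count filter, a transcript length correction, limma 3.58.1 on log2(FPKM + 1) or log2(FPKM + 0.1), the 2 groups alone, the replicate number as a block and each library left out. The named genes are the 9 members, up to 2 called rises and 2 called falls with costimulation per list, the 5 genes most correlated with Lmnb1 and Lmna, and transcripts holding at least 10% of their gene in a group, and Tmpo-213 was named after its values were seen. Members, lists and tests were chosen with earlier results of these data known. Same-numbered libraries of Ag and Ag+Costim correlated at 0.297, 0.148, 0.105, -0.0447 and -0.0168 in their deviations from the group means, so the numbers were not treated as pairs.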

Additional observations from a re-analysis of the deposited data

Results flagged for a closer look

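Of 40 groups of 5 libraries checked with Dixon's test, 4 had a library far from the others, where chance gives about 1 in 20. Lmnb1 was at 223.7 CPM in Ag+Costim 4 and at 352.6 to 400.5 CPM in the other libraries of that group (gap over range 0.729, critical value 0.71). The Lmna-201 share was 92.23% in Ag+Costim 3 and 0% to 25.71% in the others (0.721). The retained-intron share of Sun2 was 21.04% in Ag+Costim 3 and 5.314% to 9.78% in the others (0.716). The retained-intron share of Sun1 was 14.34% in Ag 4, the library with the fewest counts, and 7.877% to 8.733% in the others (0.867).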

How the results depend on the processing

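Single libraries and scaling moved some values, and the causes were not tested. The count of genes called between Ag and Naive (8792) ran from 5713 (without Naive 2) to 9569 as single libraries were left out. Transcripts called by diffSpliceDGE (1007, 656 and 490 for Ag+Costim against Ag, Ag against Naive and Ag+Costim against Naive) ran from 794 to 1275, 334 to 656 and 210 to 535 as libraries were left out, and limma's diffSplice called 3112, 3136 and 4605. The exact permutation test of shares, added after seeing the data, called 0 in each, with 8555, 8094 and 11821 transcripts at an unadjusted p below 0.05. Its smallest possible p is 0.00794 for 5 against 5 libraries and 0.0476 for 5 against 2. After adjustment these stood at 0.0827, 0.24 and 0.164, so no transcript could be called. The 0 calls therefore do not show that shares were alike. With the replicate number as a block the pairing gave 9736, 7915 and 9078 genes and 813, 453 and 357 transcripts, and 2 of 5 Ag libraries correlated best with their own number. Counts per kilobase in place of FPKM gave Lmna to Lmnb1 1.063 in Naive and 0.8561 in Ag, Lmna to Lmnb1 plus Lmnb2 0.3872 and 0.4448, Lbr to Lmna 18.89, 24.52 and 166.7, and Sun2 to Sun1 0.3568 in Ag+Costim. The log2 fold change of Banf1 between Ag+Costim and Ag was -0.0013 under upper-quartile scaling. Between Ag and Naive, that of Lmnb1 ran from -0.13 (without Ag 4) to 0.18 (without Naive 2) as libraries were left out, with -0.04 without Naive 1, and was -0.11 on log2(FPKM + 1) and -0.15 on log2(FPKM + 0.1), and the length correction gave 0.21 for Lbr and -0.018 for Emd. The usage of Sun2-202 between Ag and Naive ran from -10.7 (without Naive 2) to 1.47 (without Naive 1). Upper-quartile scaling moved the median of all genes from -0.05 to -0.245 and the calls between Ag+Costim and Ag to 4056 higher and 6338 lower. Among other related genes 887 of the values under alternatives kept direction and call and 73 lost the call. With 2 Naive libraries, calls against Naive depend on each of them.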
